A study of Homo sapiens with 16 samples.

Results

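Solute carriers are membrane proteins that move nutrients, ions, vitamins, drugs and metabolites across the plasma membrane and the membranes of organelles, and they are numbered by family, with SLC25 holding the carriers of the inner mitochondrial membrane. The genes described here are those whose symbol has the form SLC, a family number, the letter A and a member number. Of the 12592 genes listed for KMS12PE, 157 had such a symbol, and of the 14560 listed for KMS27, 167 did. The 2 tables share 145 of them and hold 179 between them, out of 334 genes of the GENCODE v29 annotation that fit the symbol form. They belong to 40 families in KMS12PE and 43 in KMS27. Genes entered the set by symbol alone, though the set and its grouping by substrate were chosen with earlier results of these data known. All 157 genes in KMS12PE and 166 of the 167 in KMS27 passed the filter on low counts, the exception being SLC43A3 in KMS27.

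KMS12PE and KMS27 are human myeloma cell lines, grown from malignant plasma cells, that carry the t(11;14) translocation. The clones are populations grown from single cells that survived a high dose of venetoclax, which blocks the anti-apoptotic protein BCL2, and that then grew on in 100 nM of it: clones A, C and D of KMS12PE and clones B5, C1 and C5 of KMS27. Each was set against the parental population of its own line, for which no dose is given, so that drug exposure, selection and descent from 1 cell cannot be told apart. Poly-A RNA of each of the 8 populations was sequenced in 2 libraries, and since nothing says that these are separate cultures, p-values measure only the spread between libraries, which may be technical.

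Malignant plasma cells make and secrete much antibody, and carriers of amino acids, of metals, of nucleotide sugars for the secretory pathway and of mitochondrial metabolites serve that load. SLC2 genes encode glucose and fructose transporters, SLC7 and SLC38 genes amino acid transporters, SLC9 genes sodium/proton exchangers, SLC16 genes monocarboxylate transporters, SLC30 and SLC39 genes zinc transporters that lower or raise cytosolic zinc, and SLC22 and SLC47 genes carriers of organic ions, many of them drugs. Some of these carriers are routes by which drugs enter or leave a cell, for example SLC19A1 for antifolates and SLC29A1 for nucleoside analogues.

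Total counts ran from 5831289 to 13674426 per library in KMS12PE, where the parental libraries were the smallest, and from 20257318 to 52615971 in KMS27. Solute carrier genes took 1.08% to 1.16% of the counts in KMS12PE and 1.19% to 1.38% in KMS27. Of 11 plasma cell markers, 10 were listed in each line, and CD27 was not. In KMS27 the listed ones summed to 7166 and 9363 CPM in clone B5, 8512 and 10153 CPM in clone C1 and 5672 and 5879.5 CPM in clone C5, against 9924 and 11671 CPM in parental cells. Clone C5 had 2.36 and 2.71 CPM of CD38 and 1840.1 and 1939.9 CPM of JCHAIN, against 106 and 111 CPM of CD38 and 4994 and 6489 CPM of JCHAIN in parental cells. SDC1 went the other way in clone C1, with 496 and 498 CPM against 353 and 381 CPM in parental cells. In the mean of the KMS27 clones 0 of the 10 were called higher and 3 lower, where 13.0% and 12.7% of all genes were. In KMS12PE the 10 listed markers summed to 2928 to 3705 CPM in clones and 3382 to 3716 CPM in parental cells. POU2AF1 had 0 to 5.36 CPM in clones against 35.3 and 34.2 CPM in parental cells. CD38 was higher, with 387 to 519 CPM in clones against 308 and 371 CPM in parental cells. TNFRSF17 had 211 and 187 CPM in clone D against 76.1 and 83.7 CPM in parental cells. In clone D 2 of the 10 were called higher and 2 lower, where 1.86% and 3.31% of all genes were. In the mean of the KMS12PE clones 0 were called higher and 2 lower, where 0.358% and 1.12% of all genes were. Of markers of other cells, none of 8 myeloid, 6 mature B cell and 8 stroma and red cell markers was listed in KMS12PE, where 2 of 8 T and NK cell markers summed to 1.89 to 6.18 CPM in clones and 4.87 to 5.97 CPM in parental cells. In KMS27 3 of 8 T and NK cell markers were listed: NCAM1, which myeloma cells commonly express, at 133 to 156 CPM in clones and 120.02 to 131 CPM in parental cells, CD3E at 0.638 to 2.97 CPM in clones and 0.508 to 0.663 CPM in parental cells, and NKG7 at 0.115 to 0.744 CPM in clones and 0 to 0.0780 CPM in parental cells; 1 of 8 stroma and red cell markers had 0.0768 to 0.279 CPM in clones and 0.0725 to 0.195 CPM in parental cells. The myeloid and mature B cell markers listed in KMS27 were ITGAM, at 0.298 to 1.68 CPM in clones and 0.0363 to 0.0780 CPM in parental cells, and MS4A1, CR2 and PAX5, together at 22.5 to 36.4 CPM in clones and 14.2 to 15.3 CPM in parental cells. PAX5 had 21.4 to 26.3 CPM in clones and 14.5 and 13.7 CPM in parental cells. MS4A1 had 9.23 and 9.70 CPM in clone C5, 0 to 0.596 CPM in clones B5 and C1 and 0.326 and 0.117 CPM in parental cells. CR2 had 0.0768 to 0.809 CPM in clones and 0.435 and 0.390 CPM in parental cells. The part of these genes in the results was not tested. Libraries of clone B5 differed more from each other than those of any other population, with a chi-square of 58.0 per degree of freedom against 11.8 to 22.5 in the other 3 populations of KMS27, and no pair of libraries of a population agreed within sampling noise.

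Levels are given as CPM, counts scaled to the TMM-adjusted library total, and levels of different genes are compared as CPM per kb of exon. The adenine nucleotide translocases SLC25A5 and SLC25A6, which exchange ATP for ADP across the inner mitochondrial membrane, led in both lines. SLC25A5 averaged 396 CPM per kb over the 4 populations of KMS27 and 257 CPM per kb in KMS12PE, and SLC25A6 301 and 143 CPM per kb. Both have named pseudogenes, so some reads may be shared. Exons of another gene overlap those of 81 solute carriers in KMS12PE and 85 in KMS27, on the other strand for 69 and 70 of them, and since strandedness of the counts is not given these values are uncertain to that extent, for example 23.4% of the exon bases of SLC1A5. Next in KMS27 came the glutamine transporter SLC1A5 at 278 CPM per kb, the light chain of the leucine transporter SLC7A5 at 245 CPM per kb and its heavy chain SLC3A2 at 86.8 CPM per kb. Next in KMS12PE came the lactate and pyruvate transporter SLC16A1 at 120.3 CPM per kb, SLC1A5 at 83.7 CPM per kb and the zinc importer SLC39A1 at 77.6 CPM per kb, although AL358472.7 on the same strand covers 60.8% of its exon bases. The median solute carrier gene stood far lower, at 4.82 CPM per kb in KMS27 and 5.43 CPM per kb in KMS12PE.

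Some genes were listed for 1 line alone. The 22 found only in the KMS27 table include the fructose transporter SLC2A5, the neuronal-type glucose transporter SLC2A3 at a mean of 26.8 CPM, and the arginine transporter SLC7A2 at 69.3 CPM. The 12 found only in the KMS12PE table include the aromatic amino acid transporter SLC16A10 at 77.7 CPM and the nucleoside transporter SLC29A2 at 60.1 CPM. Every solute carrier listed for a line reached 5 counts in 4 or more of its 8 libraries. A gene seen only in clones could reach that, and a gene seen only in the parental libraries could not.

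In KMS27 solute carriers were called in both directions in every clone. For the mean of the 3 clones against parental, 37 of 166 genes were higher (22.3%) and 29 were lower (17.5%) at an adjusted p under 0.05 in edgeR's quasi-likelihood test, where 13.0% and 12.7% of all genes tested were. The median log2 fold change was -0.02 among solute carriers and -0.01 among all genes. In bulk RNA, fewer cells of a kind and less RNA per cell cannot be told apart. Clone B5 had 33 higher and 23 lower, where 10.8% and 10.2% of all genes were (21.0% in either direction). Clone C1 had 35 higher and 20 lower, where 11.5% and 10.1% of all genes were (21.6% in either direction). Clone C5 had 24 higher and 24 lower, where 10.4% and 9.28% of all genes were (19.7% in either direction). In all 3 clones 16 genes were higher, or 9.64% against 4.50% of all genes, and 9 were lower, or 5.42% against 3.73%.

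The counts rest on the parental pair. Shares of all genes called were not taken in the fits that left out 1 library. Counts from those fits therefore show how far the solute carrier counts move, and not how they stand against other genes. Without parental replicate 1, 15 genes were higher and 10 lower in the mean of the clones, and 8 and 4 in all 3 clones. Without parental replicate 2, 16 were higher and 13 lower, and 7 were higher in all 3 clones. Of the 66 genes called in the mean, 21 were called in each of the 8 fits that left out 1 library (13 higher, 8 lower), and each of the other 45 was lost without at least 1 parental library. Over those 8 fits the calls in single clones ran from 22 to 85 in clone B5, 18 to 75 in clone C1 and 20 to 72 in clone C5. Leaving out clone libraries also moved some counts: without clone B5 replicate 1, 45 were lower in the mean and 25 higher and 18 lower in all 3 clones. Without clone C5 replicate 2, 19 were lower in the mean and 9 higher in all 3 clones, and without clone C1 replicate 1, 10 were higher and 4 lower in all 3 clones.

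**Figure D1:**
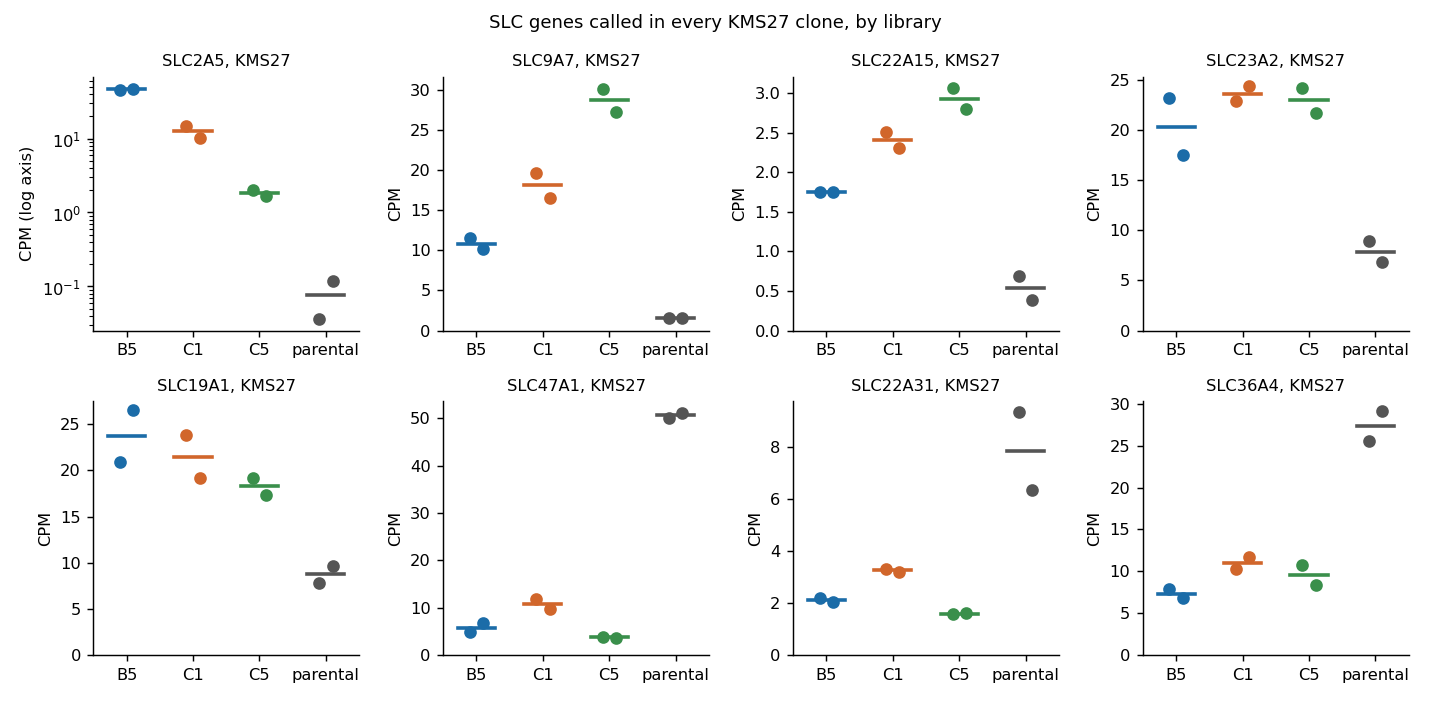
CPM of 8 solute carrier genes in each KMS27 library (points) with the mean of the 2 libraries (bars), clones at left and parental cells at right. The SLC2A5 panel has a log axis and the others start at 0; in every panel the 6 clone libraries lie on 1 side of both parental libraries.

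Among sugar transporters SLC2A5, the fructose transporter GLUT5, had the largest rise of all solute carriers listed for KMS27. It lies at chr1:9035107-9088478 on the minus strand (hg38, GENCODE v29). SLC2A5 measured 44.9 and 47.2 CPM in clone B5, 14.9 and 10.2 CPM in clone C1 and 2.02 and 1.68 CPM in clone C5, against 0.0363 and 0.117 CPM in parental KMS27. Parental cells gave 4 counts over both libraries, so the gene was near the limit of detection there. It is listed through its clone libraries alone. A fall of this kind, from parental libraries to none in the clones, could not be listed, so the ranking covers rises more fully than falls. The ratio to parental was 611 in clone B5 (95% exact interval 238 to 2245), 177 in clone C1 (69.0 to 652) and 24.8 in clone C5 (9.39 to 92.7), intervals that cover counting error only. The mean log2 fold change was 7.01 ± 0.37 (SE, adjusted p = 6.25e-06, edgeR), and the clones also differed among themselves (adjusted p = 4.2e-05, edgeR). Genes within 10 Mb had a median log2 fold change of 0.12. SLC2A5 stayed called in all 8 fits that left out 1 library, and it is not listed for KMS12PE.

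Of the 11 sugar transporters tested, 2 were higher and 2 lower (18.2% each, where 13.0% and 12.7% of all genes were). SLC50A1, an intracellular sugar transporter, fell to 55.2 and 66.6 CPM in clone B5, 69.0 and 61.6 CPM in clone C1 and 51.9 and 56.9 CPM in clone C5, against 79.2 and 100.2 CPM in parental cells (log2 fold change -0.58 ± 0.12 SE, adjusted p = 0.00673, edgeR), a call lost without parental replicate 2 (0.116). The main glucose transporter SLC2A1 had 35.0 ± 4.7 CPM in clones (SD, n = 3 clone means) and 29.2 ± 0.31 CPM in parental cells (SD, n = 2), and did not pass (adjusted p = 0.27, edgeR).

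Promoters are shown for the 3 genes with the largest rises of those called in all 3 clones, SLC2A5, SLC9A7 and SLC22A15, because their upstream sequences differ in make-up. The windows are the 250 bases before the RefSeq start, 5′ to 3′ on the gene's strand (GRCh38.p14), chr1:9069636-9069885 for SLC2A5 (minus, inside the GENCODE gene), chrX:46759119-46759368 for SLC9A7 (minus, partly inside the GENCODE gene) and chr1:115976263-115976512 for SLC22A15 (plus). Capitals mark matches, on either strand, to any of these motifs: the E-box written CACGTG, the GC box written GGGCGG, the CCAAT box, the TATA box written TATAAA and the cAMP-response core written TGACGT.
SLC2A5: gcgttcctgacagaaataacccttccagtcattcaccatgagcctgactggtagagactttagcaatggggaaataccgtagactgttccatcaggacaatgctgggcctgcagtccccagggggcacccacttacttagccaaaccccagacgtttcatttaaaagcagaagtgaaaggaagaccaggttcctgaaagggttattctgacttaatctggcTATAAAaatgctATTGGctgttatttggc
SLC9A7: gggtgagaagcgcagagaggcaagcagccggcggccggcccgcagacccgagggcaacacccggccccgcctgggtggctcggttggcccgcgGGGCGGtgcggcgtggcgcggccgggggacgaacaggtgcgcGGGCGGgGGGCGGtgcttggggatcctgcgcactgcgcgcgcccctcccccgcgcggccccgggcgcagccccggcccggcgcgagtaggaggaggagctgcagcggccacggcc
SLC22A15: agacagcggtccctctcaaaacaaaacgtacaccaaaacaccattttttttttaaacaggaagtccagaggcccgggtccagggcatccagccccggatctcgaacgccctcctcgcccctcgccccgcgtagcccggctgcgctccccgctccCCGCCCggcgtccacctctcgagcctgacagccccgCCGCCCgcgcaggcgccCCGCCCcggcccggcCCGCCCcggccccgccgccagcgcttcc

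The SLC2A5 window holds 1 TATAAA and 1 CCAAT (read as ATTGG), 3 CG dinucleotides and no GGGCGG. SLC9A7 has 37 CG dinucleotides and 3 GGGCGG, and SLC22A15 has 30 and 4. Of the 179 solute carrier genes, 142 had an entry in the RefSeq promoter table. GGGCGG was in 66.9% of those 142 windows and in 42.6% of 35116 promoter windows in all, TATAAA in 7.04% and 10.7%, CCAAT in 37.3% and 32.0%, CACGTG in 12.7% and 6.35%, and TGACGT in 7.75% and 7.10%. Among genes higher in all 3 KMS27 clones, 9 of 13 windows held GGGCGG and 1 held TATAAA. Among those lower in all 3, 5 of 8 held GGGCGG and none held TATAAA. Solute carrier windows were 1 per gene, while the 35116 were all promoter entries, not limited to genes listed here, so the sets are unlike. A match says only that these letters are present.

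Of 21 ion and pH carriers tested, 7 were higher and 1 was lower in the mean of the clones (33.3% and 4.76%, where 13.0% and 12.7% of all genes were), and their median log2 fold change was 0.03. The leading gene was SLC9A7, a sodium/proton exchanger of the trans-Golgi network on chrX:46599252-46759172. It measured 11.5 and 10.1 CPM in clone B5, 19.6 and 16.6 CPM in clone C1 and 30.1 and 27.3 CPM in clone C5, against 1.60 and 1.52 CPM in parental cells (log2 fold change 3.51 ± 0.16 SE, adjusted p = 3.69e-06, edgeR). No clone library came near the parental pair, the clones differed among themselves (adjusted p = 0.0019, edgeR), and neighbours within 10 Mb had a median of 0.54.

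The bicarbonate transporter SLC4A8 was rare and rose, with 0.854 to 1.92 CPM in clone libraries against 0.399 and 0.390 CPM in parental cells (1.83 ± 0.33, adjusted p = 0.00443, edgeR), lost without parental replicate 1 (0.055). SLC12A4, a potassium/chloride cotransporter, was the member that fell, and it did so in 1 clone: 34.2 and 35.4 CPM in clone C5, 101 and 77.6 CPM in clone B5 and 111 and 102 CPM in clone C1, against 94.0 and 93.1 CPM in parental cells. Its clones differed among themselves (adjusted p = 0.00061, edgeR). Smaller rises in the phosphate importer SLC20A1 (log2 fold change 0.32), SLC12A8 (0.31) and SLC12A9 (0.38) were each lost without either parental library.

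**Figure D2:**
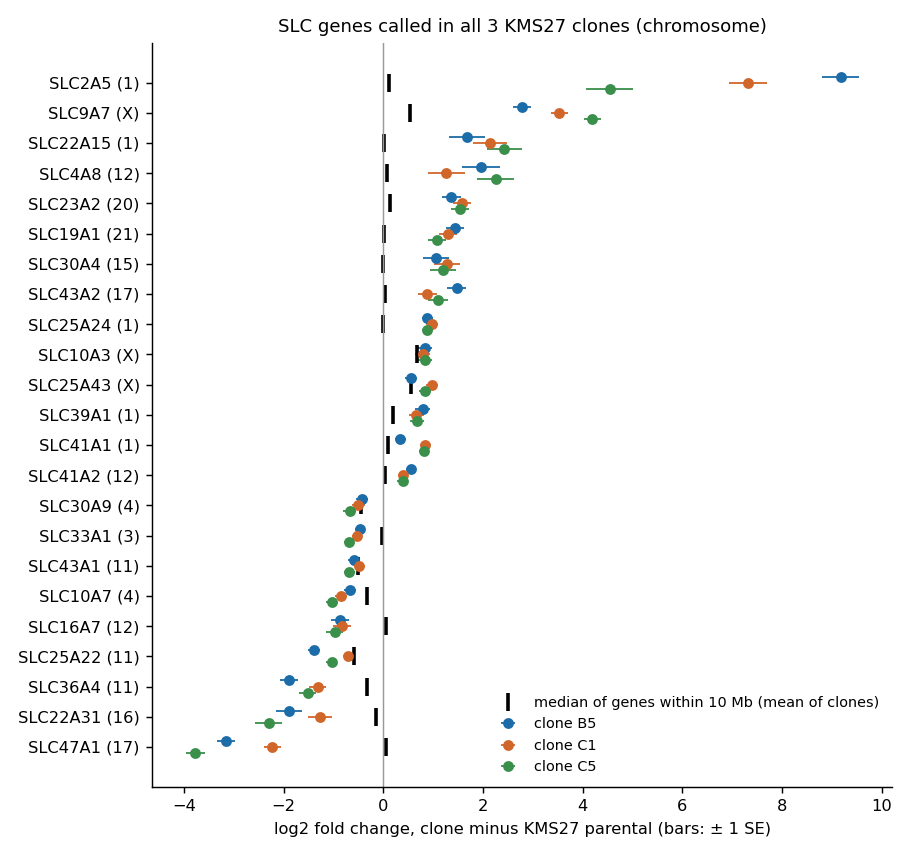
Log2 fold change (x axis) of each KMS27 clone against parental for 23 of the 25 solute carrier genes called in all 3 clones, with ± 1 SE, ordered by the mean of the clones; black ticks give the median of all genes within 10 Mb. SLC2A5 and SLC9A7 stand apart at the top and SLC47A1 at the bottom, while for SLC10A3, SLC43A1 and SLC30A9 the ticks lie near the points.

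Vitamin and choline carriers showed both directions, with 4 of 10 higher and 2 lower (40% and 20%, where 13.0% and 12.7% of all genes were). Their summed level was 333 to 465 CPM in clone libraries against 290.1 and 292.5 CPM in parental ones. SLC23A2, which imports vitamin C, rose to 23.2 and 17.5 CPM in clone B5, 22.9 and 24.4 CPM in clone C1 and 24.2 and 21.7 CPM in clone C5, against 8.92 and 6.86 CPM in parental cells (log2 fold change 1.50 ± 0.16 SE, adjusted p = 0.000252, edgeR). Its paralogue SLC23A1 fell, with 0.653 to 1.87 CPM in clone libraries against 4.57 and 2.73 CPM in parental cells (-1.86 ± 0.34, adjusted p = 0.00427, edgeR), lost without parental replicate 1 (0.0853).

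The reduced folate carrier SLC19A1, which also takes up methotrexate and other antifolates, rose to 20.9 and 26.5 CPM in clone B5, 23.8 and 19.2 CPM in clone C1 and 19.2 and 17.3 CPM in clone C5, against 7.80 and 9.63 CPM in parental cells (log2 fold change 1.27 ± 0.16 SE, adjusted p = 0.00061, edgeR). Every clone library exceeded both parental libraries, and neighbours had a median of 0.01. Exons of COL18A1 on the other strand overlap 14.0% of its exon bases, and strandedness of the counts is not given. The proton-coupled folate transporter SLC46A1 fell, with 0.0399 to 0.416 CPM in clone libraries against 0.870 and 0.897 CPM in parental cells (-2.39 ± 0.58, adjusted p = 0.0162, edgeR). That call was lost without parental replicate 1, parental replicate 2 or clone C5 replicate 2, and SARM1 on the other strand overlaps 56.4% of the exon bases of SLC46A1.

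Of 10 carriers of organic ions and of other substrates, 1 was higher and 4 were lower (where 13.0% and 12.7% of all genes were), and their median log2 fold change was -0.04. The group's summed level was 155 to 191 CPM in clone libraries against 275 and 255 CPM in parental ones, a gap that lies mostly in SLC47A1 and SLC33A1. SLC47A1 (MATE1), a proton antiporter that exports organic cations and lies at chr17:19495385-19579034, had the smallest adjusted p of all solute carriers in KMS27. It measured 4.78 and 6.65 CPM in clone B5, 11.8 and 9.79 CPM in clone C1 and 3.87 and 3.51 CPM in clone C5, against 50.1 and 51.2 CPM in parental cells (log2 fold change -3.05 ± 0.12 SE, adjusted p = 1.85e-06, edgeR). All clone libraries were far below the parental pair, neighbours had a median of 0.05, and the clones differed (adjusted p = 0.0026, edgeR).

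SLC22A31, a member of the SLC22 family placed here with the organic ion carriers, fell to 2.21 and 2.02 CPM in clone B5, 3.32 and 3.19 CPM in clone C1 and 1.58 and 1.60 CPM in clone C5, against 9.36 and 6.36 CPM in parental cells (log2 fold change -1.82 ± 0.19 SE, adjusted p = 0.000229, edgeR). Its relative SLC22A15 rose to 1.75 and 1.75 CPM in clone B5, 2.50 and 2.30 CPM in clone C1 and 3.07 and 2.79 CPM in clone C5, against 0.689 and 0.390 CPM in parental cells (2.08 ± 0.31, adjusted p = 0.00163, edgeR). The acetyl-CoA transporter of the endoplasmic reticulum, SLC33A1, fell to 81.5 ± 6.19 CPM in clones (SD, n = 3 clone means), against 119.9 ± 1.81 CPM in parental cells (SD, n = 2; adjusted p = 0.00123, edgeR), and AC104472.3 on the same strand covers 21.1% of its exon bases.

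Amino acid carriers, by summed counts the most abundant group in KMS27, had 3 of 22 higher and 4 lower. These are 13.6% and 18.2%, where 13.0% and 12.7% of all genes were called. The amino acid transporter SLC36A4 fell to 7.91 and 6.75 CPM in clone B5, 10.3 and 11.8 CPM in clone C1 and 10.7 and 8.34 CPM in clone C5, against 25.6 and 29.2 CPM in parental cells (log2 fold change -1.58 ± 0.13 SE, adjusted p = 5.98e-05, edgeR; neighbours on chromosome 11 at -0.32). The cystine/glutamate exchanger SLC7A11, which feeds glutathione synthesis, had 248 and 167 CPM in clone B5, 137 and 162 CPM in clone C1 and 159 and 123 CPM in clone C5, against 307 and 246 CPM in parental cells (-0.76 ± 0.16, adjusted p = 0.0103, edgeR). The SLC7A11 ranges of clones and parental cells overlap, antisense transcripts cover 8.97% of its exon bases, and its call was lost without parental replicate 1 (0.134).

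The 2 neutral amino acid facilitators of the SLC43 family went opposite ways in all 3 clones. SLC43A2 rose to 15.1 and 17.8 CPM in clone B5, 11.995 and 9.72 CPM in clone C1 and 11.3 and 14.0 CPM in clone C5, against 6.46 and 5.34 CPM in parental cells (log2 fold change 1.15 ± 0.17 SE, adjusted p = 0.00131, edgeR). SLC43A1 fell to 73.9 to 89.5 CPM in clone libraries, against 120.3 and 123 CPM in parental cells (-0.58 ± 0.09, adjusted p = 0.00169, edgeR), and its chromosome 11 neighbours had a median of -0.51. The abundant uptake systems did not pass: the log2 fold change was -0.15 ± 0.14 (SE) for SLC1A5, 0.10 ± 0.12 for SLC7A5, -0.09 ± 0.12 for SLC3A2, -0.17 ± 0.11 for SLC38A1 and -0.02 ± 0.11 for SLC38A2. SLC7A5 differed among clones (adjusted p = 0.0266, edgeR), with 1439 CPM in clone B5, 1238 CPM in clone C1 and 880 CPM in clone C5, against 1087 CPM in parental cells.

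Of 12 carboxylate and sulfate carriers tested, none was higher and 2 were lower in the mean of the clones. The lower ones are 16.7%, where 13.0% of all genes were higher and 12.7% lower. In clone B5 alone SLC16A13 was higher (log2 fold change 0.87, adjusted p = 0.0371, edgeR). SLC16A7 (MCT2), a high-affinity pyruvate and lactate transporter, fell to 54.8 to 76.7 CPM in clone libraries, against 132 and 111 CPM in parental cells (log2 fold change -0.89 ± 0.14 SE, adjusted p = 0.00201, edgeR). SLC16A14 was rare, with 0 counts in both libraries of clone B5, at least 8.86-fold lower than parental cells against a floor of 3 counts over the clone, and it was lost without either parental library. The main lactate carriers SLC16A1 (log2 fold change -0.09 ± 0.10 SE) and SLC16A3 (0.02 ± 0.15) did not pass.

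Metal carriers had 7 of 25 higher and 4 lower (28% and 16%, where 13.0% and 12.7% of all genes were). SLC39A1, which brings zinc into the cytosol, rose to 97.6 and 128 CPM in clone B5, 106 and 101 CPM in clone C1 and 96.2 and 112 CPM in clone C5, against 62.5 and 68.1 CPM in parental cells (log2 fold change 0.71 ± 0.12 SE, adjusted p = 0.00347, edgeR), lost without parental replicate 1 (0.0576). SLC30A4, which loads zinc into vesicles, rose to 3.79 to 5.73 CPM in clone libraries, against 2.18 and 1.99 CPM in parental cells (1.18 ± 0.23, adjusted p = 0.00567, edgeR), lost without parental replicate 2 (0.0625). All 3 SLC41 genes, a family of magnesium transporters, rose in the mean of the clones: SLC41A1 by 0.67 ± 0.09, SLC41A2 by 0.45 ± 0.09 and SLC41A3 by 0.40 ± 0.11 (log2 fold change ± SE). SLC41A1 kept its call in all 8 fits that left out 1 library, SLC41A2 lost it without parental replicate 2, and SLC41A3 lost it without either parental library. SLC30A9 on chromosome 4 fell by 0.53 on the log2 scale, close to its neighbours at -0.46.

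**Figure D3:**
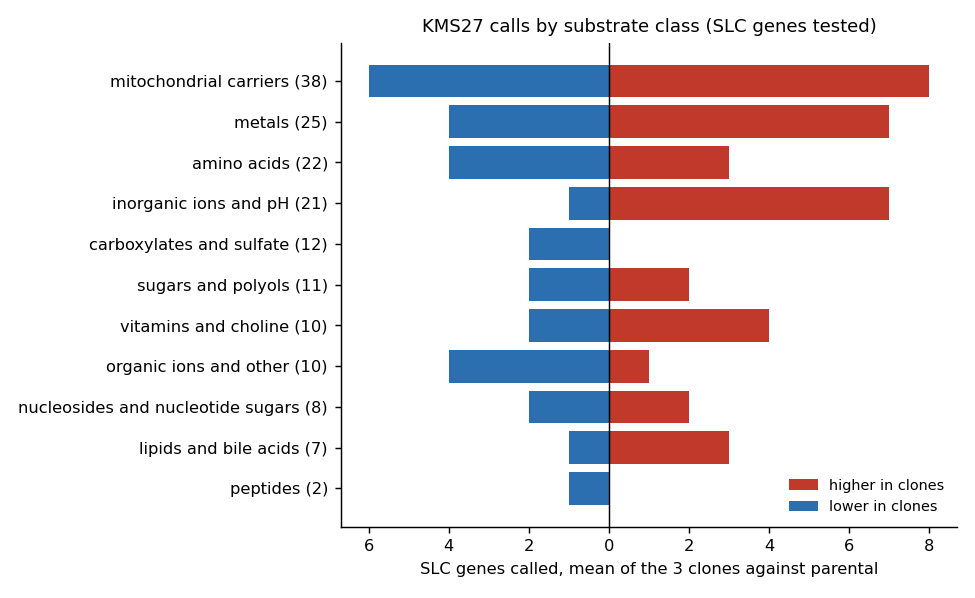
Number of solute carrier genes called higher (right) and lower (left) in the mean of the 3 KMS27 clones against parental (x axis), by substrate class with the number tested in brackets. Ion and pH carriers had 7 higher and 1 lower, organic ion carriers 1 higher and 4 lower, and mitochondrial carriers 8 and 6. Of all genes tested, 13.0% were higher and 12.7% lower.

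Mitochondrial carriers had 8 of 38 higher and 6 lower (21.1% and 15.8%, where 13.0% and 12.7% of all genes were). The carriers of adenine nucleotides and phosphate had 4 of 7 higher and 1 lower (57.1% and 14.3%). SLC25A24, a calcium-regulated ATP-magnesium/phosphate carrier, rose to 45.4 and 43.3 CPM in clone B5, 48.4 and 46.0 CPM in clone C1 and 47.7 and 40.9 CPM in clone C5, against 23.1 and 25.0 CPM in parental cells (log2 fold change 0.92 ± 0.10 SE, adjusted p = 0.000292, edgeR). Antisense AL359258.2 overlaps 13.7% of its exon bases. Its relative SLC25A23 rose to 31.0 to 52.6 CPM in clone libraries, against 27.6 and 27.97 CPM in parental cells (0.64 ± 0.10, adjusted p = 0.00249, edgeR).

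The ATP/ADP translocases did not move together. SLC25A5 had 514 to 784 CPM in clone libraries against 368 and 492 CPM in parental cells (log2 fold change 0.58 ± 0.17 SE, adjusted p = 0.0362, edgeR), and SLC25A6 had 498 to 961 CPM against 410.1 and 506 CPM (0.62 ± 0.17, adjusted p = 0.0261, edgeR). SLC25A4, the muscle-type form, had 44.5 to 63.8 CPM against 66.8 and 86.4 CPM (-0.46 ± 0.14, adjusted p = 0.0422, edgeR). Each of these 3 calls was kept in 2 of the 8 fits that left out 1 library, and neighbours had a median of 0.56 for SLC25A5 and 0.72 for SLC25A6 on chromosome X and -0.24 for SLC25A4 on chromosome 4. The mitochondrial phosphate carrier SLC25A3 did not pass (0.29 ± 0.16).

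SLC25A22, a mitochondrial glutamate carrier on chromosome 11, fell to 12.9 and 13.9 CPM in clone B5, 22.0 and 21.2 CPM in clone C1 and 17.3 and 17.0 CPM in clone C5, against 35.9 and 34.5 CPM in parental cells (log2 fold change -1.04 ± 0.09 SE, adjusted p = 6.74e-05, edgeR; neighbours -0.58). PANO1 on the other strand overlaps 10.9% of its exon bases. SLC25A20, which carries acylcarnitines for fatty acid oxidation, fell in clones B5 and C5 but not in clone C1: 13.2 and 16.3 CPM in clone B5, 21.5 and 21.1 CPM in clone C5 and 32.3 and 39.5 CPM in clone C1, against 29.1 and 38.2 CPM in parental cells. The clones differed (adjusted p = 0.0054, edgeR), and its mean call was lost without parental replicate 2 (0.177). SLC25A43, a carrier on chromosome X whose substrate is not settled, rose to 29.6 to 44.5 CPM in clone libraries, against 21.4 and 20.8 CPM in parental cells (0.79 ± 0.10, adjusted p = 0.000796, edgeR; neighbours 0.56).

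Among lipid and bile acid carriers 3 of 7 were higher and 1 lower (42.9% and 14.3%, where 13.0% and 12.7% of all genes were). SLC10A7, which bears on calcium handling and protein glycosylation, fell to 23.1 and 20.3 CPM in clone B5, 19.1 and 19.4 CPM in clone C1 and 16.8 and 16.9 CPM in clone C5, against 33.7 and 35.5 CPM in parental cells (log2 fold change -0.85 ± 0.09 SE, adjusted p = 0.000268, edgeR; neighbours on chromosome 4 at -0.33). SLC10A3 on chromosome X rose by 0.82 ± 0.12, near its neighbours at 0.67. Nucleoside and nucleotide sugar carriers had 2 of 8 higher and 2 lower (25% each, beside the same shares of all genes). The equilibrative nucleoside transporter SLC29A1 had 87.4 ± 4.8 CPM in clones (SD, n = 3 clone means) and 61.4 ± 1.4 CPM in parental cells (SD, n = 2; adjusted p = 0.0132, edgeR), lost without parental replicate 1 or parental replicate 2, with neighbours at 0.27. SLC35A1, which carries CMP-sialic acid into the Golgi, had 13.0 to 16.2 CPM in clone libraries against 20.9 and 22.0 CPM in parental cells (-0.55 ± 0.11, adjusted p = 0.00606, edgeR), also lost without parental replicate 1 or parental replicate 2, with neighbours at -0.25. AL049697.1 on the same strand covers 55.5% of the exon bases of SLC35A1. The peptide transporter SLC15A2 fell (-1.23 ± 0.37, adjusted p = 0.0403, edgeR), a call kept in 2 of the 8 fits that left out 1 library.

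Calls in KMS27 were uneven over the chromosomes. On chromosome X 8 of 10 solute carriers were higher and none lower, with a median log2 fold change of 0.67, where all genes of that chromosome had a median of 0.58 and 59.5% were called higher. On chromosome 11 none of 9 was higher and 7 were lower, with a median of -0.71 against -0.46 for all its genes, 52.9% of which were called lower. On chromosome 4 none of 6 was higher and 4 were lower (median -0.50 against -0.32 for all its genes, 38.8% of which were called lower). Across the 166 genes the log2 fold change and the median of tested genes within 10 Mb had a Spearman correlation of 0.36, a description over genes that share libraries and neighbours. Neighbours were beyond 0.2 in either direction for 37 genes, 23 of them called and all 23 with the neighbours' sign. Of the 129 with neighbours within 0.2, 26 were higher and 17 lower, among them SLC2A5, SLC23A2, SLC19A1, SLC22A15, SLC25A24 and SLC47A1. The same split by neighbours was not made for all genes, so these counts have no matching share to be read against. Wherever they lay, 13.0% of all genes were higher and 12.7% lower. The part of these regional shifts in the values of single genes was not tested.

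**Figure D4:**
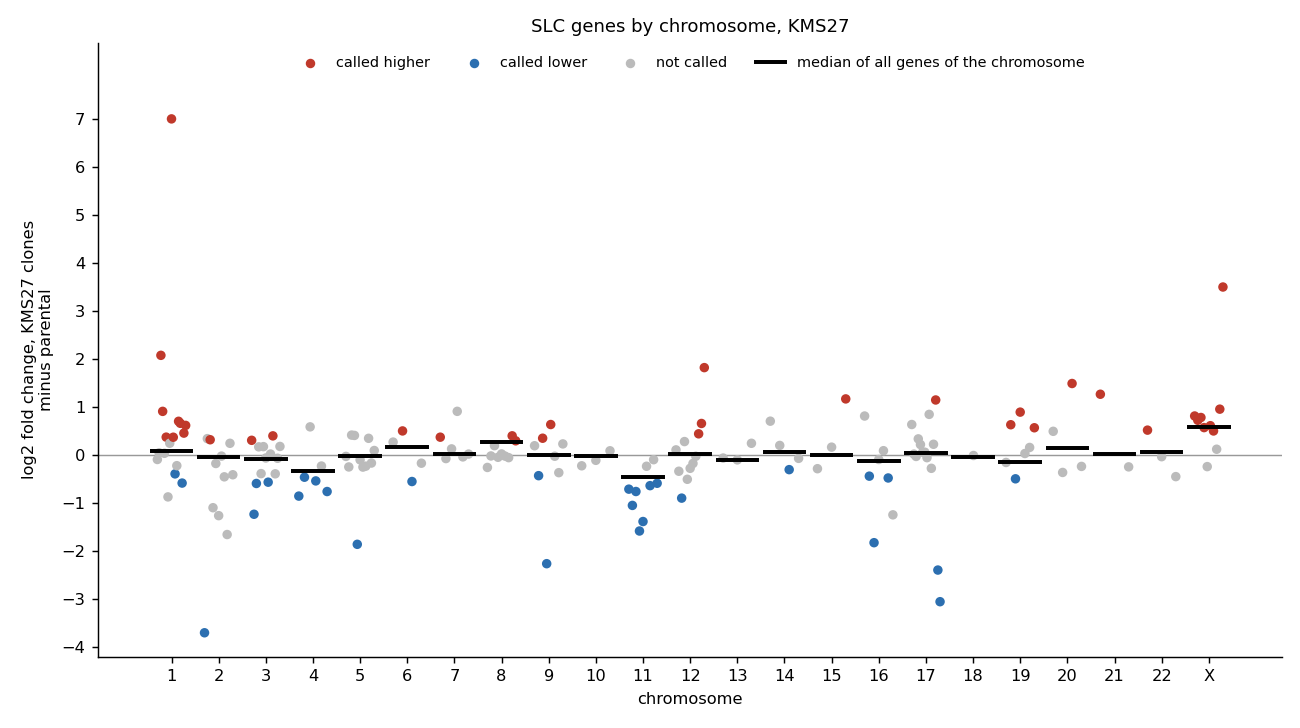
Log2 fold change of each tested solute carrier gene in the mean of the KMS27 clones against parental (y axis) by chromosome (x axis), coloured by call; black bars give the median of all genes of the chromosome. Points on chromosome X lie mostly above 0 and those on chromosome 11 below it, on the side of their bars.

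The 3 KMS27 clones differed among themselves in 18 solute carriers, where 13.7% of all genes did. Besides SLC2A5, SLC9A7, SLC12A4 and SLC47A1 these include SLC9A9, an endosomal exchanger with 56.4 CPM in clone B5, 26.1 CPM in clone C1 and 31.9 CPM in clone C5, against 31.7 CPM in parental cells (adjusted p = 0.0029, edgeR). SLC8A1, a sodium/calcium exchanger, had 3.14 CPM in clone B5, 0.544 CPM in clone C1 and 0.296 CPM in clone C5, against 1.06 CPM in parental cells (adjusted p = 0.0098, edgeR). The lysosomal sialic acid exporter SLC17A5 was highest in clone C1, with 27.8 CPM there, 16.4 CPM in clone B5 and 20.4 CPM in clone C5, against 17.4 CPM in parental cells (adjusted p = 0.0106, edgeR). The count of 18 was 7 without clone C1 replicate 1 and 52 without clone B5 replicate 1. Leaving out other libraries moved it by over 1.5 times too: 11 without parental replicate 1, 10 without parental replicate 2, 50 without clone B5 replicate 2, 11 without clone C1 replicate 2, and 9 without clone C5 replicate 1 or replicate 2. Transporters and transporter partners outside the symbol form had 10 of 51 higher and 6 lower in the mean of the KMS27 clones. These are 19.6% and 11.8%, where 13.0% and 12.7% of all genes were called. In KMS12PE 0 of 50 were called in either direction, where 0.358% of all genes were higher and 1.12% lower.

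In KMS12PE solute carriers changed little, and the changes that passed belonged mostly to single clones. For the mean of the clones, none of 157 genes was higher and 3 were lower, where 0.358% and 1.12% of all genes were. Clone A had no call, where 0.212% of all genes were higher and 0.236% lower (0.448% in either direction). Clone C had 2 higher and 3 lower, where 0.904% and 0.880% of all genes were (1.78% in either direction). Clone D had 1 higher and 7 lower, where 1.86% and 3.31% of all genes were (5.16% in either direction). Leaving out any 1 of the 8 libraries left 3 to 5 calls in clone D, 1 to 7 in clone C and 0 to 2 in the mean. None was higher or lower in all 3 clones, where 0.0244% and 0.0407% of all genes were. The median log2 fold change was -0.02, against 0.00 for all genes. Libraries with the same replicate number resembled each other in KMS12PE, and with that number as a block 3 genes were higher and 10 lower in the mean of the clones (2.51% and 3.99% of all genes), 8 were called in clone A (3.65%), 16 in clone C (7.08%) and 29 in clone D (16.4%). Lower ones under the block include SLC2A13, SLC9A9, SLC22A5, SLC27A2, SLC27A3, SLC29A1, SLC38A10, SLC39A8 and SLC47A1, and the 3 higher ones were SLC5A6, SLC25A4 and SLC44A1.

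**Figure D5:**
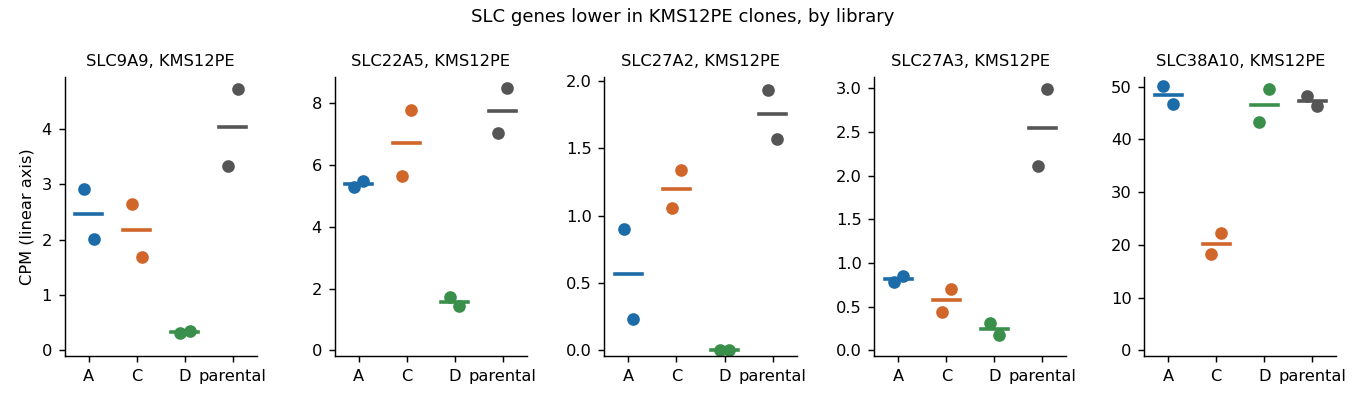
CPM (linear axis) of 5 solute carrier genes in each KMS12PE library (points) with the mean of the 2 libraries (bars), clones at left and parental cells at right. SLC9A9, SLC22A5 and SLC27A2 are lowest in clone D, and SLC38A10 is low in clone C alone.

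Clone D was the lowest population for several carriers. SLC9A9, an endosomal sodium/proton exchanger, measured 0.315 and 0.356 CPM in clone D, 2.92 and 2.01 CPM in clone A and 2.64 and 1.69 CPM in clone C, against 3.34 and 4.71 CPM in parental cells (clone D log2 fold change -3.52 ± 0.51 SE, adjusted p = 0.005, edgeR). SLC22A5 (OCTN2), which imports carnitine, had 1.73 and 1.42 CPM in clone D, 5.28 and 5.49 CPM in clone A and 5.64 and 7.76 CPM in clone C, against 7.03 and 8.48 CPM in parental cells (clone D -2.31 ± 0.30, adjusted p = 0.0025, edgeR). Both calls held in all 8 fits that left out 1 library. With the replicate block SLC22A5 was also called in the mean of the clones (adjusted p = 0.00287, edgeR; 0.0617 without).

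Of the SLC27 fatty acid transport and acyl-CoA synthetase genes, SLC27A2 had 0 counts in clone D, at least 10.2-fold lower, against a floor of 3 counts over the clone, than parental cells with their 21 counts. Its other levels were 0.899 and 0.232 CPM in clone A and 1.06 and 1.34 CPM in clone C, against 1.93 and 1.57 CPM in parental cells. SLC27A3 had 0.787 and 0.851 CPM in clone A, 0.441 and 0.706 CPM in clone C and 0.315 and 0.178 CPM in clone D, against 2.11 and 2.98 CPM in parental cells. All 6 clone libraries were below both parental ones for SLC27A3 (mean log2 fold change -2.38 ± 0.40 SE, adjusted p = 0.0242, edgeR), at 31 parental counts. Calls of SLC27A2 in clone D were lost without clone D replicate 3, parental replicate 1 or parental replicate 3. For SLC27A3 the call in clone D was lost without clone D replicate 3 or parental replicate 3, and that in the mean was lost without any 1 library of clone A, clone C or parental cells. The mean call of SLC9A9 (-1.72 ± 0.33, adjusted p = 0.0447, edgeR) was lost without any 1 of the 8 libraries. SLC47A1 and SLC16A13 were also called lower in clone D, and SLC7A6 was called higher there. Each of these calls was lost without any 1 of the 8 libraries. SLC47A1 had 8.09 and 7.27 CPM in clone A, 4.76 and 4.23 CPM in clone C and 5.20 and 4.36 CPM in clone D, against 9.84 and 8.95 CPM in parental cells, and with the block it passed in the mean of the clones (adjusted p = 0.00817, edgeR; 0.0835 without the block).

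Clone C differed at the end of chromosome 17. SLC38A10, an amino acid transporter of the secretory pathway, had 18.2 and 22.2 CPM in clone C, 50.2 and 46.8 CPM in clone A and 43.4 and 49.6 CPM in clone D, against 48.3 and 46.3 CPM in parental cells (clone C log2 fold change -1.22 ± 0.13 SE, adjusted p = 0.0023, edgeR). The call held in all 8 fits that left out 1 library. The mitochondrial dicarboxylate carrier SLC25A10 had 25.0 and 23.9 CPM in clone C, 58.4 and 44.9 CPM in clone A and 52.7 and 44.1 CPM in clone D, against 47.1 and 42.3 CPM in parental cells (clone C -0.87 ± 0.15, adjusted p = 0.026, edgeR), lost without any 1 library of clone C or parental cells. AC139530.2 on the same strand covers 46.6% of its exon bases. The lactate exporter SLC16A3 in the same region had 8.81 and 6.49 CPM in clone C, against 15.5 and 12.4 CPM in parental cells, which did not pass without the replicate block (adjusted p = 0.12, edgeR) and passed with it (0.00206). In clone C tested genes within 10 Mb of these 3 had a median log2 fold change of -0.85, and their part in the values was not tested.

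Clone C was higher for 2 vitamin and choline carriers. The biotin and pantothenate importer SLC5A6 had 187 and 153 CPM in clone C, 157 and 147 CPM in clone A and 117 and 101 CPM in clone D, against 117 and 104 CPM in parental cells (clone C log2 fold change 0.62 ± 0.12 SE, adjusted p = 0.046, edgeR), with neighbours on chromosome 2 at 0.47 in that clone. The choline transporter SLC44A2 had 23.3 and 22.6 CPM in clone C, 17.3 and 15.9 CPM in clone A and 7.57 and 8.64 CPM in clone D, against 12.1 and 13.0 CPM in parental cells (clone C 0.86 ± 0.15, adjusted p = 0.023, edgeR). Clones A and C lay above parental cells and clone D below them for SLC44A2, and its clones differed (adjusted p = 0.0011, edgeR). With the replicate block SLC44A2 was also called lower in clone D (adjusted p = 0.0211, edgeR; 0.0638 without) and SLC5A6 higher in clone A (0.000447, edgeR; 0.255 without). Calls of SLC5A6 and SLC44A2 in clone C were each kept in 2 of the 8 fits that left out 1 library. In all, 16 of 157 solute carriers differed among the KMS12PE clones, where 8.22% of all genes did. Leaving out a library of clone C gave 8 (replicate 1) or 10 (replicate 3), leaving out one of clone D gave 10 (replicate 1) or 9 (replicate 3), and the count was 50 with the replicate block (26.1% of all genes).

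Between the lines the response itself was compared for the 145 genes in both tables, as the log2 fold change of clones over parental in KMS12PE minus that in KMS27. In a joint fit 35 differed (24.1%), 15 higher and 20 lower in KMS12PE, where 6.45% and 7.70% of all genes did. Of the 35, 18 differed in each of the 16 fits that left out 1 library, and the count was 21 without KMS12PE parental replicate 1. SLC47A1 had -0.78 in KMS12PE and -3.05 in KMS27 (difference 2.28 ± 0.21 SE, adjusted p = 1.18e-05, edgeR). Several others were called in KMS27 and not in KMS12PE, with log2 fold changes in KMS12PE and KMS27 in turn: SLC9A7 (0.07 and 3.51), SLC23A2 (0.02 and 1.50), SLC19A1 (0.05 and 1.27), SLC36A4 (-0.19 and -1.58) and SLC25A22 (0.09 and -1.04).

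The nucleoside transporter SLC29A1 had -0.29 in KMS12PE and 0.51 in KMS27 (adjusted p of the difference 0.00208, edgeR). SLC25A4, the muscle-type ATP/ADP translocase, had 0.39 in KMS12PE and -0.46 in KMS27 (adjusted p of the difference 0.0118, edgeR), lost without KMS12PE parental replicate 1 or KMS27 parental replicate 2. Within KMS12PE neither gene passed without the replicate block (adjusted p = 0.161 for SLC29A1 and 0.206 for SLC25A4, edgeR), and both passed with it (0.00526 and 0.0234). Parental levels of some solute carriers were also unlike between the lines, though the tables were scaled separately and no test was made. SLC9A7 had 29.7 CPM in parental KMS12PE and 1.56 CPM in parental KMS27, SLC19A1 62.4 and 8.72 CPM, SLC47A1 9.40 and 50.6 CPM, and SLC7A11, whose response was not called different (adjusted p = 0.425, edgeR), 18.04 and 276 CPM.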

How the data were processed

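RNA of 16 libraries from 8 populations was measured by poly-A RNA sequencing, with 2 libraries per population. The authors deposited 1 table of whole-number read counts per gene for each line, not normalized, and these counts were used as deposited. The submitters' processing notes name hg38. Aligner, counter, annotation and strand setting: not given in the sources used here. From the counts, edgeR 4.0.16 in R 4.3.3 (filterByExpr, TMM scaling, quasi-likelihood test, Benjamini-Hochberg adjustment over all genes of a table, calls at an adjusted p under 0.05) fitted 1 mean per population in each line, and the mean of the 3 clones, each clone, and the differences among clones were tested. A joint fit of the 16 libraries tested the difference of the responses. SE is the log2 fold change divided by the square root of the test's F. CPM are edgeR's counts scaled to TMM-adjusted totals, and exon lengths, overlaps and neighbours within 10 Mb come from GENCODE v29. The 2 tables were scaled separately. At the library totals found, 3 counts come to 0.219 to 0.514 CPM in KMS12PE and 0.0570 to 0.148 CPM in KMS27, and intervals and floors cover counting error only.

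Members, substrate classes and marker lists were chosen with earlier results of these data known. The genes named were those called in all 3 clones (up to 12 each way), the 2 with the smallest adjusted p per class and line if called, those called in both lines, up to 8 whose response differed between lines, the 2 most different among clones, the 10 highest per kb, up to 4 with a clone at 3 counts or fewer or at least 16-fold from parental, and a fixed list of well-known carriers. SLC2A13, SLC5A6, SLC7A2, SLC7A6, SLC8A1, SLC12A8, SLC12A9, SLC16A10, SLC16A13, SLC17A5, SLC22A5, SLC23A1, SLC25A10, SLC25A20, SLC25A23, SLC29A2, SLC39A8, SLC41A2, SLC41A3 and SLC44A1 fall outside that rule and were named after their values were seen. Some genes counted in the totals are not reported here. KMS12PE libraries share replicate numbers 1 and 3, and the paired differences of its populations correlated at 0.254 to 0.537, so values with that number as a block are given beside the counts and the main KMS12PE results whose call it changes. The procedure was tested on simulated data. Alternatives were other scaling, DESeq2 1.42.0, other filters, the replicate block, the 3 clones as 1 group, and leaving out each library.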

Additional observations from a re-analysis of the deposited data

Results flagged for a closer look

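The response of the clones relative to parental cells differed between the lines, by the test of the difference itself in the joint edgeR fit, for 35 of the 145 genes in both tables. The following are differences of log2 fold changes, KMS12PE minus KMS27. SLC9A7, the trans-Golgi sodium/proton exchanger, differed by -3.43 (adjusted p = 5.65e-08), with 0.07 in KMS12PE and 3.51 in KMS27. The organic cation exporter SLC47A1 differed by 2.28 (adjusted p = 1.18e-05), with -0.78 in KMS12PE, which did not pass there without the replicate block (adjusted p = 0.0835) and passed with it (0.00817), and -3.05 in KMS27.

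Of the mitochondrial carriers, SLC25A43 differed by -1.06 (adjusted p = 0.000154), SLC25A24 by -1.06 (adjusted p = 0.000164) and the glutamate carrier SLC25A22 by 1.15 (adjusted p = 0.000169). The amino acid transporter SLC36A4 differed by 1.40 (adjusted p = 0.000186) and the vitamin C importer SLC23A2 by -1.47 (adjusted p = 0.000268).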

How the results depend on the processing

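No named result reversed under any alternative run. In KMS12PE, clone A had 1 call without TMM scaling and 1 with DESeq2, where edgeR gave 0, clone D had 5 with DESeq2, and genes lower in the mean of the clones came to 1 with DESeq2 and 0 with the 3 clones as 1 group. With the replicate block KMS12PE had 3 higher and 10 lower in the mean, 8, 16 and 29 calls in clones A, C and D, and 50 genes differing among clones. In KMS27 the correlations of paired differences ran from 0.0597 to 0.444. The replicate block there gave 41 higher and 35 lower in the mean (15.3% and 16.1% of all genes). It gave 39 differing among clones (21.0% of all genes), where DESeq2 gave 33. With the 3 clones as 1 group KMS27 had 19 higher and 13 lower, and 14 responses differed between the lines. Leaving out 1 library at a time, KMS12PE calls ranged from 0 to 0 in clone A, 1 to 7 in clone C, 3 to 5 in clone D, 0 to 2 lower in the mean and 8 to 12 among clones. KMS27 calls ranged from 15 to 48 higher and 10 to 45 lower in the mean, 22 to 85 in clone B5, 18 to 75 in clone C1, 20 to 72 in clone C5, 7 to 25 higher and 4 to 18 lower in all 3 clones, and 7 to 52 among clones. Responses differing between the lines ranged from 21 to 44. The cause was not tested, beyond the smaller number of libraries or the other model that each alternative brings. Of the alternatives, only the replicate block had shares of all genes called taken beside its counts. Contrasts of single clones were not run with the 3 clones as 1 group, which has none. Genes at a few counts, such as SLC27A2 in KMS12PE and SLC2A5 in parental KMS27, are limited by depth.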
